A study of Mus musculus with 6 samples.

Results

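The G2 and mitosis genes are 48 genes that cells switch on as they prepare to divide and carry out division, among them the mitotic cyclins, the kinases that drive mitosis, and the proteins of the spindle, kinetochore, condensin complex and cytokinesis. They were taken by gene symbol from a list drawn up with earlier results of these data known, by a rule that used no measured value, and all 48 were found among the 16836 genes of the deposited table. Polyadenylated RNA was sequenced from mouse bone marrow-derived macrophages, cells matured in culture from marrow precursors, with 3 libraries from UBE3A KO mice (KO) and 3 from wild-type littermates (WT). The labels name neither the knockout allele nor the age of the mice nor the culture conditions. Nothing in them states that the libraries stem from separate animals, and p-values then reflect only the spread among these libraries, part of which may be technical. Libraries held 25454862 to 35517269 reads. Levels are CPM, that is, read counts brought to a shared library size, and values by library are listed in the order of replicates 1, 2 and 3.

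Entry into mitosis is driven by cyclin-dependent kinase 1 bound to B-type cyclins. Sister chromatids are then held under the spindle checkpoint until the anaphase-promoting complex, a ubiquitin ligase, marks securin and cyclin B for destruction. Most of these genes are transcribed in the late part of the cell cycle under the MuvB complex with B-MYB and FOXM1, and are held silent in resting cells by the DREAM complex. Macrophage precursors from marrow divide in culture under colony-stimulating factor 1, so such transcripts are commonly read as a sign of cycling cells. In bulk RNA, fewer cycling cells and less RNA per cycling cell cannot be told apart.

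The knockout libraries carried their label. Ube3a, the targeted ubiquitin ligase gene, stood at 69.7, 61.2 and 77.0 CPM in the KO libraries against 207.1, 193.7 and 177.6 CPM in the WT libraries, without overlap. All 10 macrophage markers were measured. Their summed level, most of it Lyz2, was 14567 to 17225 CPM in KO and 15346 to 16478 CPM in WT. None of the 5 T and NK cell, 5 erythroid and 4 mast cell and basophil markers were among the genes of the table. Markers of monocytes, neutrophils, B cells, progenitors and stromal cells were present and are given beside the library pattern. Of 5 dendritic cell markers, 3 were in the table, with a summed level of at most 0.58 CPM in a library. Replicate 2 of either genotype stood apart by Xist, with 28 reads in KO and 14 in WT, against 30161 to 42232 in the other 4 libraries.

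Many of the genes share a promoter feature that the choice of members did not use. The cell-cycle homology region, with the letters TTTGAA or TTCGAA, is the DNA element through which MuvB binds such promoters, and it often lies near CCAAT boxes, which bind NF-Y. RefSeq promoter windows on GRCm38.p6, from 250 bases before to 50 after a transcription start, were given for 39 of the 48 genes. A homology region on either strand was found for 29 of the 39 genes (74.4%), against 21.7% of 27025 genes in the same table. A CCAAT box was found for 29 of the 39 (74.4%), against 41.1% of all genes, and both lay in the same window for 26 (66.7%), against 8.61%. The E2F-type letters TTTGGCGC or TTTCCCGC were found for 2 of 39 genes (5.13%), against 1.80%. These features were not particular to the members. Of 43 other G2 and M phase genes with windows, 67.4% had a homology region and 67.4% a CCAAT box. Both lay in the same window for 48.8% of these 43, and 9.30% had the E2F-type letters. A match describes the letters of the window and is not a measured binding site.

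The 4 promoters printed here, chosen as examples of members with such letters, are those of cyclin B2, CDK1, CDC20 and PLK1, which act at entry into mitosis and at anaphase. They are written 5′ to 3′ on the strand of the gene, with homology regions (TTTGAA or TTCAAA) and CCAAT boxes (CCAAT or ATTGG) in capitals. The windows lie at chr9:70421505-70421804 (minus strand, Ccnb2), chr10:69352863-69353162 (minus strand, Cdk1), chr4:118437294-118437593 (minus strand, Cdc20) and chr7:122159185-122159484 (plus strand, Plk1).
Ccnb2: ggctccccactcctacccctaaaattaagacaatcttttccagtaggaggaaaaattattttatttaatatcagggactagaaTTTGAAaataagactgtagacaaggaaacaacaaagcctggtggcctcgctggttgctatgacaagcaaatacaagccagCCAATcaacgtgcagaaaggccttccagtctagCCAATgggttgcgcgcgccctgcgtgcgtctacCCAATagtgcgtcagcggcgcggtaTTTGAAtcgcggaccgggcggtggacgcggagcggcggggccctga
Cdk1: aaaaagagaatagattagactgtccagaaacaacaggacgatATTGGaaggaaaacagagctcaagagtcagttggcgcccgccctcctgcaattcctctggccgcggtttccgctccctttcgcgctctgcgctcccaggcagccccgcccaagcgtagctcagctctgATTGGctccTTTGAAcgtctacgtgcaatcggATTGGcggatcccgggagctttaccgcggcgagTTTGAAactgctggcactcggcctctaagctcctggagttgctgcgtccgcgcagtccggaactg
Cdc20: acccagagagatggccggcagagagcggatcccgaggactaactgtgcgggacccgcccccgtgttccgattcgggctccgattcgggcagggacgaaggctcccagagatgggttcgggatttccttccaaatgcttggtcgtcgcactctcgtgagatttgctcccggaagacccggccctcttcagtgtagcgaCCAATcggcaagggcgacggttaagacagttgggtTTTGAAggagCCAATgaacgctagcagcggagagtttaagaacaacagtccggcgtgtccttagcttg
Plk1: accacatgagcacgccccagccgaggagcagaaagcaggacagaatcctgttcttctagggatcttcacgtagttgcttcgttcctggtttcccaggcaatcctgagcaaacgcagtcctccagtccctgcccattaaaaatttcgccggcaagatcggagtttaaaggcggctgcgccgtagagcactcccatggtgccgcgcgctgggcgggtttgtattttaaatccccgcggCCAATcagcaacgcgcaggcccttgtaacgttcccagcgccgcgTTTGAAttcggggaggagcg

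In Ccnb2 a homology region starts 5 bases into the transcript, with 3 CCAAT boxes upstream. In Cdk1 the nearer homology region starts at position -15 from the transcription start and in Cdc20 at -18, and in Plk1 it starts at 31. The same letters were not found in the windows of 10 members, among them Ccnb1, Birc5 and Pttg1. No window was given for Ccna2, Cdc25c, Foxm1, Aurkb, Incenp, Tpx2, Dlgap5, Smc4 and Kif20a. The median log2 fold change (KO minus WT, on the scale given with the tests) was -0.042 over the 29 members with a match and -0.077 over the 10 without, with 21 and 8 negative, a description with no test of the difference.

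No G2 and mitosis gene passed the test for a difference between genotypes. All 48 passed the filter on low values (at least 1 CPM in 3 or more libraries), and 0 were called at an adjusted p under 0.05, against 0.0165% of the 12118 genes tested (limma with Benjamini-Hochberg adjustment over all genes; member adjusted p from 0.866 to 0.992). At an unadjusted p under 0.05 the count was also 0 of 48, against 4.13% of genes tested, and limma-voom on the recovered reads called 0 as well. In the authors' deposited table the smallest p-value of a member was 0.0763, for Smc2. The 3 KO and 3 WT values overlapped for every member, whereas they did not overlap for 9.95% of genes tested. The log2 fold change (KO minus WT, on log2(CPM + 1)) was negative for 36 members and positive for 12, with a median of -0.041, beside 49.6% negative and a median of 0.0015 over all genes tested.

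The measurements bounded these genes about as closely as genes tested in general. The 95% interval of the fold change lay within 1.5-fold of no change for all 48 members, as it did for 90.4% of genes tested, and within 1.2-fold for 19 of them, against 34.6%. The widest bound was that of Smc4, whose interval reached a 1.40-fold lower level in KO. In mean CPM, KO stood at 86.7% to 109.04% of WT over the 48 genes.

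**Figure D1:**
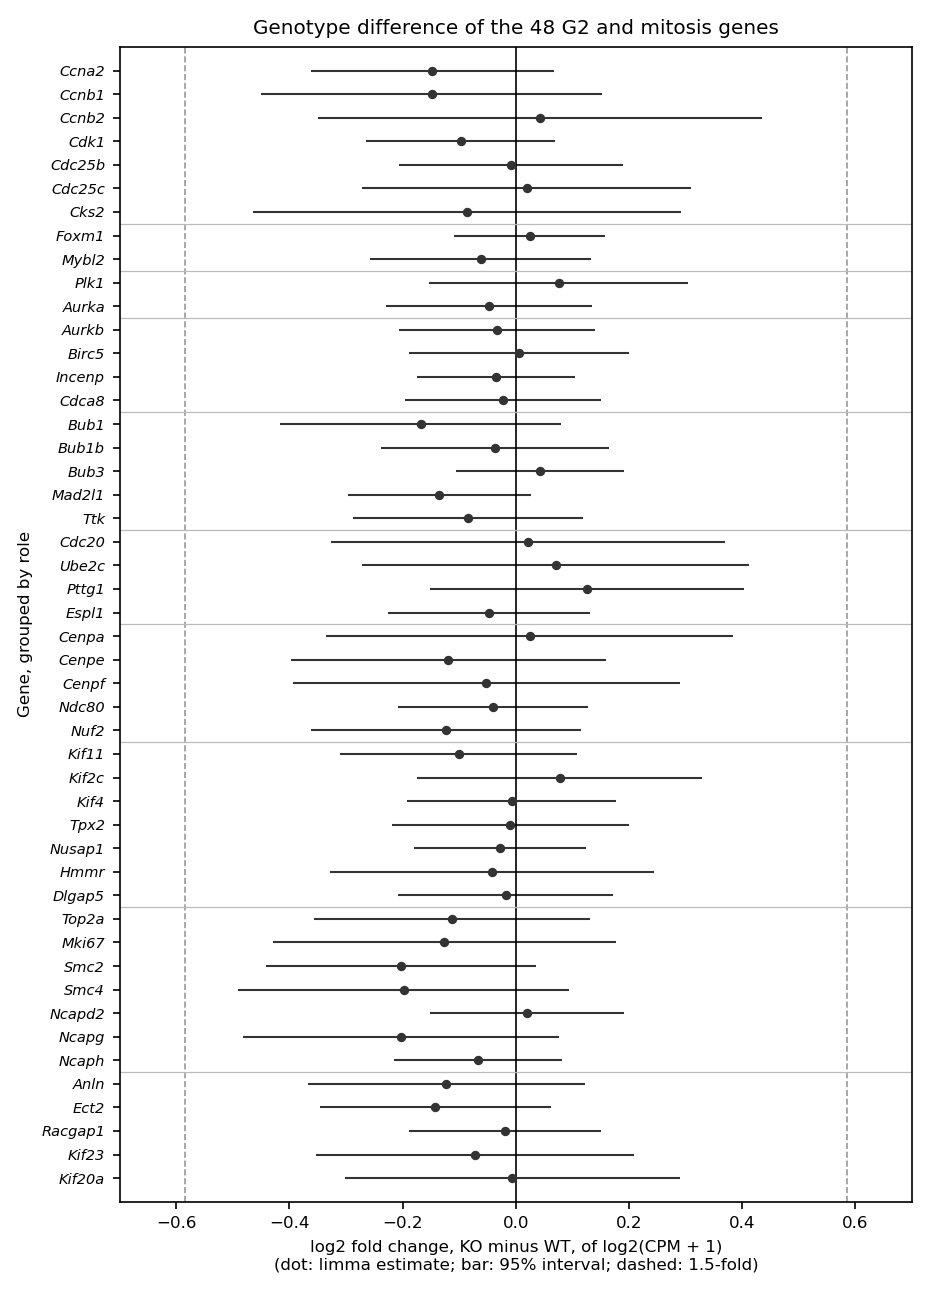
Fold change of each of the 48 genes between KO and WT (horizontal axis, log2 units, dot with 95% interval from limma; genes on the vertical axis by role, with dashed lines at 1.5-fold). Every interval spans 0 and lies inside the dashed lines, with the most negative estimates at Ncapg, Smc2 and Smc4 and the most positive at Pttg1.

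The levels of the division genes spanned a wide range. Mean CPM over the 6 libraries went from 6.81 (Cks2) to 1648 (Mki67), with a median of 126.5. Of all genes tested, 78.3% had a mean at or above that of Cks2. The members together took 8373 to 10149.5 CPM per library, that is 0.837% to 1.01% of the reads. Per kilobase of annotated exon, Mki67, the proliferation antigen that coats mitotic chromosomes, was the highest of the 48 at a mean of 163.8 CPM per kb over the 6 libraries. It was followed by Top2a, the topoisomerase that untangles sister chromatids, at 102.8 and Ccna2 at 80.3 CPM per kb. Cdc25c, a phosphatase that activates CDK1, was the lowest at 4.68 CPM per kb. Annotated exons may include some that macrophages do not use, so these levels are approximate.

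In WT the members shared their lowest library, while in KO the lowest library differed between members. WT replicate 2 held less than both other WT libraries for 47 of 48 members (all except Pttg1), a pattern seen in 35.3% of genes tested. KO replicate 1 was the lowest KO library for 27 members, KO replicate 2 for 17 and KO replicate 3 for 4, where the shares over genes tested were 30.1%, 38.4% and 31.5%. None of the 48 had its highest level in KO replicate 1, KO replicate 2 or WT replicate 2, the highest libraries of 14.3%, 25.0% and 16.7% of genes tested. WT replicate 3 was highest for 22 members (10.7% of genes tested), WT replicate 1 for 21 (23.5%) and KO replicate 3 for 5 (9.70%). The median distance from the 6-library mean was -0.10, -0.029 and 0.073 (log2 units) for the KO libraries and 0.086, -0.12 and 0.11 for the WT libraries. The highest library held at most 1.55 times the lowest for any member (Ccnb2), and the median of this ratio was 1.26. The SD within genotype had a median of 0.13 log2 units over the members and 0.12 over all genes tested.

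**Figure D2:**
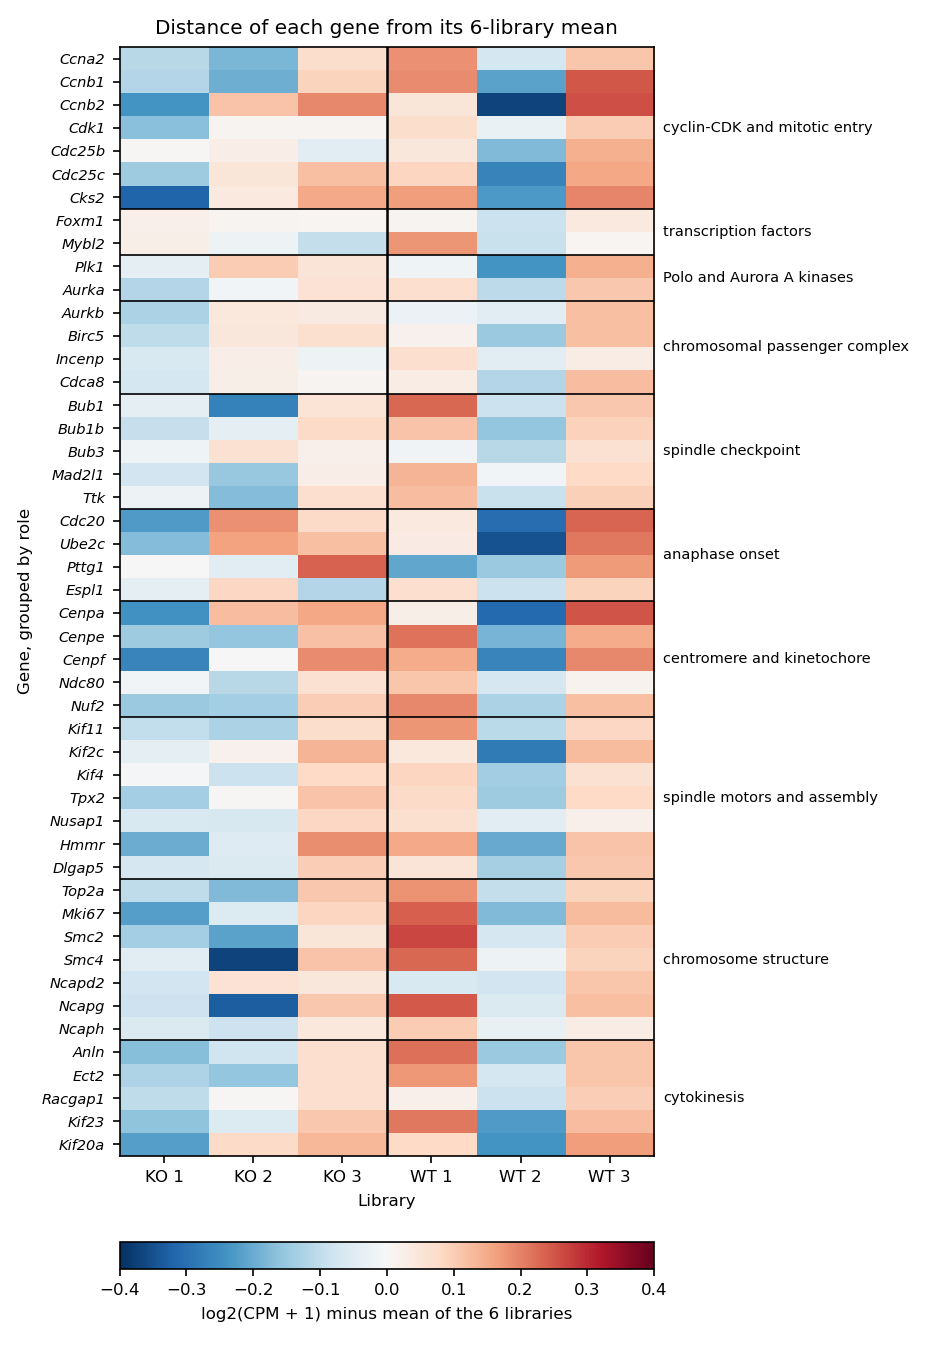
Level of each of the 48 genes (rows, grouped by role) in each of the 6 libraries (columns), as the distance of log2(CPM + 1) from the mean of the 6 libraries (color scale from -0.4 to 0.4). WT replicate 2 is below the mean for all 48 genes and WT replicate 3 above it for all 48, while KO replicate 2 is low for Smc2, Smc4 and Ncapg and high for Cdc20 and Ube2c.

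The cyclins and their kinase overlapped between the genotypes. Ccnb1, cyclin B1, stood at 63.8, 60.5 and 73.8 CPM in KO, against 79.1, 59.6 and 82.6 CPM in WT. The lowest and the highest of these 6 values are both WT, and the log2 fold change was -0.15 (95% interval -0.45 to 0.15). Cdk1, the kinase that cyclin B activates, stood at 145.7, 165.0 and 165.0 CPM in KO and at 172.2, 160.7 and 175.8 CPM in WT, so that a single KO library lay below the rest (log2 fold change -0.10, interval -0.26 to 0.069). Ccna2, cyclin A2 of S and G2 phase, was 303, 288 and 343 CPM in KO and 371, 311 and 353 CPM in WT (log2 fold change -0.15, interval -0.36 to 0.067). Its order of libraries within each genotype was the same as for Smc2, with KO replicate 2 lowest in KO and WT replicate 1 highest in WT. Ccnb2, cyclin B2, ran differently in KO, at 99.02, 126.7 and 133.9 CPM, beside 121.2, 90.4 and 140.3 CPM in WT. The other genes of mitotic entry, the phosphatases Cdc25b and Cdc25c and the CDK subunit Cks2, had log2 fold changes of -0.0089, 0.019 and -0.087. Cks2 was the least abundant member, with 130 to 283 reads per library.

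Of the transcription factors of the program, Foxm1 was the steadiest member of all. Foxm1, the forkhead factor of G2 genes, stood at 149.5, 148.5 and 148.1 CPM in KO and at 148.6, 138.9 and 151.3 CPM in WT. Its highest library was 1.09 times its lowest, the smallest such ratio of the 48 (log2 fold change 0.024, interval -0.11 to 0.16). Mybl2, which encodes B-MYB, averaged 34.6 ± 1.501 CPM in KO against 36.3 ± 3.49 in WT (SD, n = 3 each).

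The mitotic kinases and the chromosomal passenger complex overlapped between genotypes. Plk1, Polo-like kinase 1, had 93.8, 103.6 and 99.9 CPM in KO and 95.3, 81.5 and 106.6 CPM in WT, with WT libraries at both ends of the order (log2 fold change 0.075, interval -0.15 to 0.30). Plk1 lies on the same chromosome as Ube3a (chromosome 7: 122159439 to 122169873, plus strand, GRCm38, GENCODE M21), as do Bub3 (131560222 to 131571895, plus strand) and Mki67 (135689784 to 135716361, minus strand). Aurkb, the Aurora kinase of the passenger complex that corrects faulty spindle attachments, had 88.8, 99.9 and 99.5 CPM in KO and 95.4, 93.9 and 105.6 CPM in WT (log2 fold change -0.033, interval -0.21 to 0.14). Its partners Birc5 (survivin), Incenp and Cdca8 (borealin) had log2 fold changes of 0.0053, -0.035 and -0.023, and Aurka, the Aurora kinase of spindle poles, one of -0.047.

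Of the 5 spindle checkpoint genes none passed the test, with 4 negative log2 fold changes and a median of -0.085 on the log2 scale. Bub1, a checkpoint kinase at kinetochores, had 150.9, 128.3 and 161.0 CPM in KO and 181.8, 145.9 and 167.1 CPM in WT, where the highest 2 libraries were WT and KO replicate 2 was lowest (log2 fold change -0.17, interval -0.42 to 0.081). Mad2l1, the MAD2 inhibitor of the anaphase-promoting complex, had 119.2, 113.3 and 128.1 CPM in KO and 138.3, 124.8 and 133.01 CPM in WT (log2 fold change -0.14, interval -0.30 to 0.026). Only KO replicate 3 and WT replicate 2 kept its genotypes from separating. Bub3, which recruits BUB1 and BUBR1 to kinetochores, was 128.2, 135.4 and 131.7 CPM in KO and 128.4, 120.1 and 135.45 CPM in WT (log2 fold change 0.043). The checkpoint kinase Ttk and Bub1b, which encodes BUBR1, had log2 fold changes of -0.085 and -0.036.

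Of the 4 genes of anaphase onset 3 had positive log2 fold changes, with a median of 0.046, and none passed the test. The sign of 2 of them turned with the libraries: without WT replicate 2, Cdc20 stood at -0.13 and Ube2c at -0.086, and without both replicate 2 libraries at -0.21 and -0.15. Cdc20, which activates the anaphase-promoting complex, stood at 69.2, 92.1 and 85.6 CPM in KO and at 83.4, 65.5 and 95.4 CPM in WT, with KO replicate 1 and WT replicate 2 well below the other 4 libraries (log2 fold change 0.022, interval -0.33 to 0.37). Ube2c, the ubiquitin-conjugating enzyme of that complex, kept the same 2 libraries lowest, at 99.4, 125.5 and 121.96 CPM in KO and 114.7, 87.9 and 130.02 CPM in WT (log2 fold change 0.071, interval -0.27 to 0.41). Pttg1, securin, which restrains separase, was the most positive member, at 32.2, 31.3 and 38.2 CPM in KO and 27.8, 29.0 and 36.4 CPM in WT (log2 fold change 0.13, interval -0.15 to 0.40). Espl1, separase itself, had a log2 fold change of -0.047.

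Kinetochore and spindle genes also overlapped between the genotypes. Cenpf, a large kinetochore protein of G2 and M phase, had 177.3, 212.6 and 242.8 CPM in KO and 236.1, 177.4 and 243.7 CPM in WT. KO replicate 1 and WT replicate 2 were again the lowest, and nearly equal (log2 fold change -0.052, interval -0.39 to 0.29). Cenpa, the histone of centromeres, and the kinetochore genes Cenpe, Ndc80 and Nuf2 had log2 fold changes of 0.025, -0.12, -0.040 and -0.12. Kif11, the kinesin that pushes spindle poles apart, had 223.5, 219.3 and 251.4 CPM in KO and 270.5, 222.0 and 253.4 CPM in WT, with 2 KO libraries and WT replicate 2 close together at the low end (log2 fold change -0.10, interval -0.31 to 0.11). Kif2c, a kinesin that depolymerizes microtubules at centromeres, had 82.1, 85.3 and 92.8 CPM in KO and 86.8, 69.1 and 92.1 CPM in WT (log2 fold change 0.077). The other spindle genes, Kif4, Tpx2, Nusap1, Hmmr and Dlgap5, lay between -0.042 (Hmmr) and -0.0074 (Kif4).

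Genes of chromosome structure held the most negative estimates, with 6 of 7 negative and a median of -0.13, and none passed the test. Smc2, the ATPase core of condensin, stood at 289, 273 and 328 CPM in KO and at 382, 303 and 341 CPM in WT. The 2 highest libraries were WT and the 2 lowest KO, with KO replicate 3 above WT replicate 2 (log2 fold change -0.20, interval -0.44 to 0.036, the smallest unadjusted limma p of the members at 0.0860). Ncapg, a condensin I subunit, had 105.5, 88.9 and 120.7 CPM in KO and 132.8, 107.4 and 121.6 CPM in WT, where the same overlap of KO replicate 3 with WT replicate 2 was seen (log2 fold change -0.20, interval -0.48 to 0.076). Smc4, the partner of SMC2, had a log2 fold change of -0.20 (interval -0.49 to 0.094), while the condensin I subunits Ncaph and Ncapd2 had values of -0.066 and 0.019. Top2a had 860.1, 817 and 994 CPM in KO and 1045, 863 and 981 CPM in WT (log2 fold change -0.11, interval -0.36 to 0.13). Mki67 had 1406, 1575 and 1738 CPM in KO and 1932, 1450.3 and 1787 CPM in WT, with WT libraries both first and second and a WT library among the lowest 2 (log2 fold change -0.13, interval -0.43 to 0.18).

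Cytokinesis genes were all negative, with a median of -0.072 over the 5 genes, and none passed the test. Racgap1, the GTPase-activating part of centralspindlin, had 208.1, 224.1 and 233.9 CPM in KO and 226.3, 210.1 and 239.0 CPM in WT (log2 fold change -0.020, interval -0.19 to 0.15). Ect2, the exchange factor that activates RhoA at the cleavage furrow, had 112.0, 109.7 and 128.0 CPM in KO and 138.0, 116.3 and 131.96 CPM in WT, the latter set overlapping the former through WT replicate 2 alone (log2 fold change -0.14, interval -0.35 to 0.061). The furrow scaffold Anln stood at -0.12 on that scale, and the central spindle kinesins Kif23 and Kif20a had values of -0.072 and -0.0064.

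**Figure D3:**
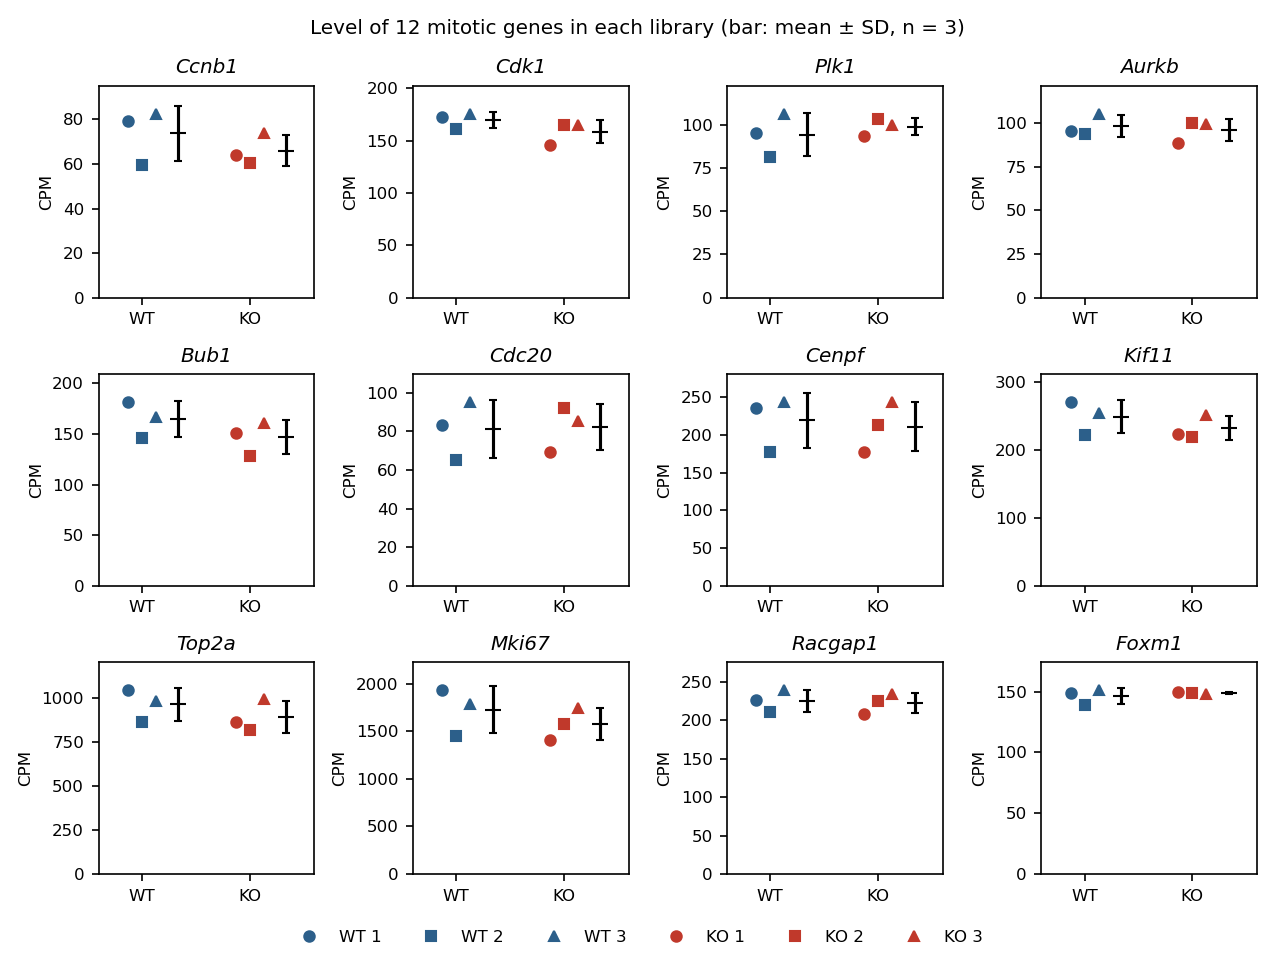
Level in CPM (vertical axes from 0) of 12 genes in the 3 WT (blue) and 3 KO (red) libraries, with the replicate number as the symbol and the mean ± SD (n = 3) as the black bar. The genotypes overlap in every panel, WT replicate 2 is the lowest WT library in each, and Foxm1 is nearly flat at 138.9 to 151.3 CPM.

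In KO replicate 2 the roles lay at different levels. It stood at a median of -0.18 log2 units from the 6-library mean over the 7 chromosome structure genes and -0.15 over the 5 checkpoint genes, but at 0.12 over the 4 genes of anaphase onset and 0.026 over the 7 genes of mitotic entry. The kinetochore genes had medians below the mean in KO replicate 1 (-0.15), KO replicate 2 (-0.11) and WT replicate 2 (-0.19). In WT replicate 2 all 10 role medians were below the mean, from -0.23 (anaphase onset) to -0.066 (chromosome structure). These are medians of few genes in single libraries and have no test.

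Among pathway genes outside the members, none was called either. Of 56 other G2 and M phase genes, 40 had a negative log2 fold change, and the median was -0.047. All 3 KO values lay below all 3 WT values for 2 of them (3.57%), against 5.55% of genes tested, namely the condensin II subunits Ncapd3 (log2 fold change -0.14) and Ncapg2 (-0.22). The 17 subunits and regulators of the anaphase-promoting complex had a median of -0.015 (9 negative), with the inhibitor Fbxo5 at -0.13 and the conjugating enzyme Ube2s at 0.13. The 11 genes of the DREAM and MuvB complexes had a median of -0.089 (9 negative), with the MuvB subunit Lin37 at 0.29 and the pocket protein Rbl1 at -0.14. Genes of cell-cycle exit and G1 had a median of 0.052 over 17 (5 negative), with the CDK inhibitor Cdkn1c at 0.41 and Rb1, the retinoblastoma protein, at -0.21. The 32 S phase genes had a median of -0.069 (26 negative), with Ccne2 at -0.29 and the replication factor Cdc45 at -0.14. No gene of these 5 lists was called (limma with Benjamini-Hochberg adjustment), and Lin37 was the 1 gene with an unadjusted p under 0.05.

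The S phase genes followed another order of libraries. WT replicate 2, the lowest library for mitosis genes, was the highest for S phase genes, with a median distance of 0.0998 from the 6-library mean, and KO replicate 1 stood at 0.028. The 56 other G2 and M phase genes had distances of -0.069, -0.071 and 0.055 for KO and 0.099, -0.090 and 0.087 for WT. The signs were those of the members in every library, but KO replicate 2 was as low as KO replicate 1, unlike in the members.

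Marker lists of other cells also differed between libraries. The macrophage markers lay at median distances of 0.042, 0.096 and -0.015 in KO and -0.17, 0.14 and -0.15 in WT, with a median log2 fold change of 0.10, and were thus highest among WT libraries in WT replicate 2, where the mitosis genes were lowest. Mrc1, the mannose receptor, ranged from 277 CPM in WT replicate 1 to 738 in WT replicate 2 and 897 in KO replicate 2. The monocyte list, with 4 of 6 genes tested, lay at distances of -0.44, -0.032 and 0.23 for the KO libraries and 0.46, -0.70 and 0.43 for WT, with a summed level of 421 to 607 CPM in KO and 376 to 712 CPM in WT, nearly all of it Cx3cr1 and Ccr2. The list of neutrophils, another lineage of the marrow, with 5 of 10 genes tested, stood at -0.75, 0.064 and 0.20 in KO and 0.64, -0.50 and 0.53 in WT. Its summed level was 8.28 to 21.3 CPM in KO and 10.5 to 32.8 CPM in WT. The granule genes Elane, Camp and Mpo were at 0 in WT replicate 2, as were Elane and Camp in KO replicate 1. These genes did not pass the filter and reached at most 0.25, 0.51 and 1.41 CPM in any library, so their zeros lie near the floor. Cxcr2, also near the floor, was at 0 in KO replicate 3 and at 0.25 CPM in WT replicate 2. The B cell list, with 2 of 5 genes tested, summed to 31.6 to 67.1 CPM in KO and 30.8 to 56.7 CPM in WT, most of it Ighm, and did not have its lowest WT level in WT replicate 2. The stem and progenitor list, with 3 of 8 genes tested, summed to 34.4 to 45.4 CPM in KO and 37.4 to 88.1 CPM in WT, most of it Cd34. Its median distances were -0.16, -0.060 and -0.030 in KO and 0.10, -0.20 and 0.17 in WT. The stromal list, with 2 of 6 genes tested and a summed level of at most 4.69 CPM, stood at -0.0064, -0.026 and 0.17 in KO. In WT it stood at 0.015, -0.27 and 0.11. The interferon-stimulated list of 12 genes, added with these results known, ran high where the median distance of the members was lowest in each genotype. It was at 1.12 in KO replicate 1 and 0.97 in WT replicate 2. In the other libraries it was at -0.96 in KO replicate 2, 0.17 in KO replicate 3, -0.69 in WT replicate 1 and -0.52 in WT replicate 3. By count of members, WT replicate 2 was the lowest of the 6 libraries for 22, KO replicate 2 for 13 and KO replicate 1 for 10. The part of these markers in the levels of the mitosis genes was not tested.

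**Figure D4:**
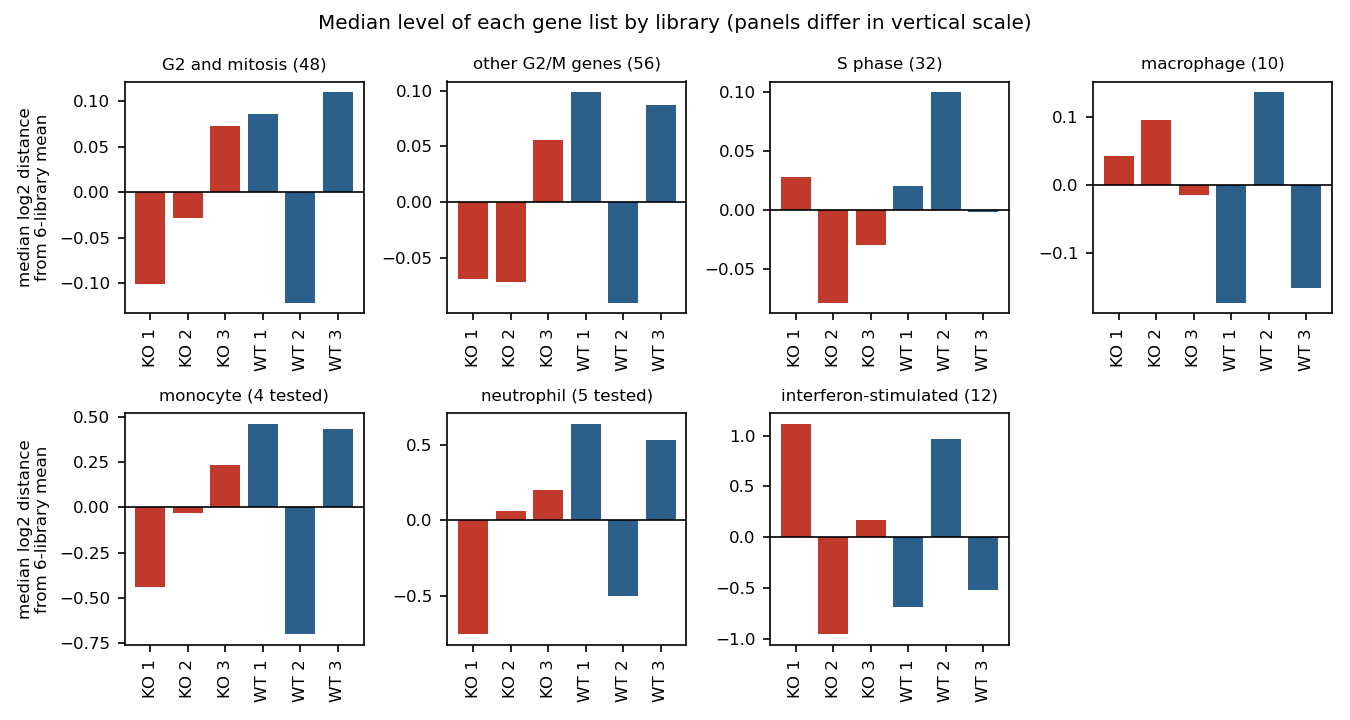
Median distance from the 6-library mean (vertical axis, log2 units, scale differing by panel) of 7 gene lists in each library (horizontal axis, KO in red, WT in blue). The members, the other G2 and M phase genes and the monocyte and neutrophil markers are low in KO replicate 1 and WT replicate 2. The other G2 and M phase genes are as low in KO replicate 2 as in KO replicate 1. WT replicate 2 is the highest library for S phase genes.

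The lean of the members toward lower levels in KO depended on the libraries included. Without WT replicate 2, 47 of 48 log2 fold changes were negative with a median of -0.12. In that fit 10 members had an unadjusted limma p under 0.05, beside 10.6% of genes tested, although none was called (smallest limma adjusted p = 0.374). WT replicate 2 was the lowest WT library for 47 of 48 members, so leaving it out raised their WT mean by construction. Without KO replicate 3, 40 were negative with a median of -0.078, and 4 had an unadjusted p under 0.05, beside 5.46% of genes tested. Without KO replicate 2, 39 were negative with a median of -0.050. Without both replicate 2 libraries, which stand apart by Xist, 47 were negative with a median of -0.13. Leaving out KO replicate 1 gave 25 negative members of 48; leaving out WT replicate 1 gave 26, and leaving out WT replicate 3 gave 25. The medians without KO replicate 1, WT replicate 1 and WT replicate 3 were -0.0053, -0.0092 and -0.0078.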

How the data were processed

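The submitters' processing notes name Cufflinks, FastQC 0.11.15, HTSeq 0.11.0, HISAT2 2.1.0 and Trimmomatic 0.36. The roles of these tools, the build and the strand setting are not stated in the labels. The authors deposited 1 table with log2 CPM per library (CPM per the file headers), log2 fold changes and unadjusted p-values. Values of size 1 or more had lost their decimal mark on saving. Taken out of the log and freed of the prior count, the values of a library are whole multiples of the CPM of 1 read. This fixed each mark and gave whole reads (within 1e-06) for 100% of genes. The deposited p-values were used only as quoted, and 6 in exponent form were not used.

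CPM were computed on the authors' scaled library sizes, where 1 read was worth 0.0277 to 0.0400 CPM. The 12118 genes that reached 1 CPM in 3 or more libraries were fitted as log2(CPM + 1) in limma 3.58.1 (R 4.3.3; eBayes with trend) with genotype as the only term, two-sided, with Benjamini-Hochberg adjustment. Count models planned for raw counts were not used, since the deposited unit is log2 CPM. Decoding and fit were tested on simulated data. Decoding recovered 100% of simulated reads in each library. With 1 shared spread for all genes, the fit called 28% of simulated 1.2-fold changes and 96% of 1.5-fold changes, with 4 false calls. Differences near 1.2-fold would thus mostly be missed. The members and lists were chosen with earlier results of these data known. Values by library are given for Ube3a, 12 members fixed by role and the 5 members with the smallest p in each direction. Other lists name their 2 genes with the smallest p. Ccnb2, and other members given by fold change only, were named after their values were seen. Exon lengths and positions come from GENCODE M21 (GRCm38), promoters from RefSeq. The 16 alternatives changed the pseudocount (0.5 CPM, or the deposited log2 CPM), the filter, the scaling, the test (limma-voom), the replicate block and the libraries included.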

Additional observations from a re-analysis of the deposited data

How the results depend on the processing

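In each of the 16 alternatives 0 of 48 members and 0 of the 56 other G2 and M phase genes were called, and the smallest member adjusted p in any of them was 0.343 (limma, without both replicate 2 libraries). With the replicate number as a block, the counts stayed at 0 and the median log2 fold change at -0.041, with member adjusted p of at least 0.927 (limma); the block changed no call. Same-numbered libraries of KO and WT deviated from their group means with correlations of -0.216, -0.134 and 0.140 for replicates 1, 2 and 3. No library correlated best with its own number, and the main fit did not take the numbers as pairs. Replicate 2 of both genotypes nevertheless shared low Xist, so these correlations do not settle whether the numbers are pairs. Ube3a passed in every alternative (limma adjusted p up to 0.0444). The median of the members was -0.049 without further scaling of library sizes and -0.034 with quantile normalization, and leaving out 1 library gave -0.12 to -0.0053. Of the 21 named members, 12 kept their sign in all 16 alternatives. The sign of the other 9 depended on the libraries included, and the cause was not tested. With 1 library left out their log2 fold changes ranged from -0.0643 to 0.0224 for Aurkb, -0.20 to 0.0668 for Cenpf, -0.0684 to 0.0258 for Racgap1, -0.13 to 0.14 for Cdc20, -0.0254 to 0.17 for Plk1, -0.0124 to 0.0492 for Foxm1, -0.0453 to 0.16 for Kif2c, -0.0017 to 0.0845 for Bub3 and -0.0858 to 0.19 for Ube2c. Without both replicate 2 libraries the values were -0.0576 for Plk1, -0.21 for Cdc20, -0.0116 for Foxm1, -0.0341 for Kif2c, -0.0215 for Bub3 and -0.15 for Ube2c. Without KO replicate 1 and WT replicate 2, the library with the lowest summed level of these genes in each genotype, an alternative chosen after seeing the data and by the outcome itself, 42 of 48 members were negative with a median of -0.077, and Cdc20, Foxm1 and Kif2c stood at -0.0068, -0.0160 and -0.0075. Depth limited no member to fewer than 130 reads in a library.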
